A study of Mus musculus with 6 samples.

Results

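The genes described here are 10 core components of the mammalian circadian clock, chosen by name from the count table: the activators *Clock* and *Arntl* (which encodes BMAL1), the repressors *Per1*, *Per2*, *Per3*, *Cry1* and *Cry2*, the nuclear receptors *Nr1d1* and *Nr1d2*, and the output transcription factor *Dbp*. All 10 were found among the 23420 genes of the table, and all 10 passed the minimum of 10 counts over the 6 libraries. The RNA came from splenic B cells of 3 Ahr+/+ and 3 Ahr-/- mice on the C57Bl/6J background, used as adults and matched for age and sex according to the methods of the study. The Ahr-/- line carries the Ahr tm1Bra allele in every cell of the animal, so the deletion was not restricted to B cells and was present throughout their development. B cells of both genotypes were isolated from spleen and kept in IMDM with 5% FCS for 8 h. All cultures held 10 μg/ml anti-IgM, which crosslinks the B-cell receptor, and 20 ng/ml of the cytokine IL-4, and all received 250 nM FICZ, a high-affinity ligand of the aryl hydrocarbon receptor (AhR), for the last 4 h. Cultures without FICZ or without stimulation were not analysed here. All 6 libraries come from a single time in culture, and the time of day at which the spleens were taken is not given in the sources used here, so a level could be compared between genotypes but the phase and amplitude of a rhythm could not.

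The circadian clock is a feedback loop of transcription that runs in most cells of the body, lymphocytes included, where it is known for timing their traffic through tissues. CLOCK and BMAL1 form a heterodimer through their bHLH and PAS domains, bind E-box sequences and activate the *Per* and *Cry* genes, whose proteins accumulate, enter the nucleus and repress the heterodimer. A second loop runs through REV-ERBα and REV-ERBβ, the products of *Nr1d1* and *Nr1d2*, which bind ROR elements and repress *Arntl*, while the ROR receptors activate it. AhR and its partner ARNT belong to the same bHLH-PAS family as CLOCK and BMAL1, and the PER proteins also carry PAS domains. The comparison asked whether the RNA levels of the clock genes differed between activated B cells with and without AhR.

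Of the 10 clock genes, *Per1* was higher and *Clock* was lower in Ahr-/- B cells, and the remaining 8 did not pass an adjusted p of 0.05 in edgeR's quasi-likelihood test. Both changes were small, a fold change of 1.15 for *Per1* and of 0.850 for *Clock*. Over all 13682 genes tested, 9.79% were higher and 8.13% were lower, 17.9% in all, so that 2 of 10 clock genes is close to the share found among genes in general. Among the 9890 tested genes whose mean level was at least that of the lowest clock gene the share was 20.9%. The median log2 fold change of the 10 clock genes was 0.03, beside 0.00 for all tested genes, and none of the 10 exceeded an absolute log2 fold change of 0.28. Ahr+/+ and Ahr-/- values were fully separated for 5 of the 10 clock genes (*Clock*, *Per1*, *Cry2*, *Nr1d1* and *Dbp*), beside 33.5% of all tested genes. In bulk RNA such as this, fewer cells of a type and less RNA per cell cannot be told apart.

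**Figure D1:**
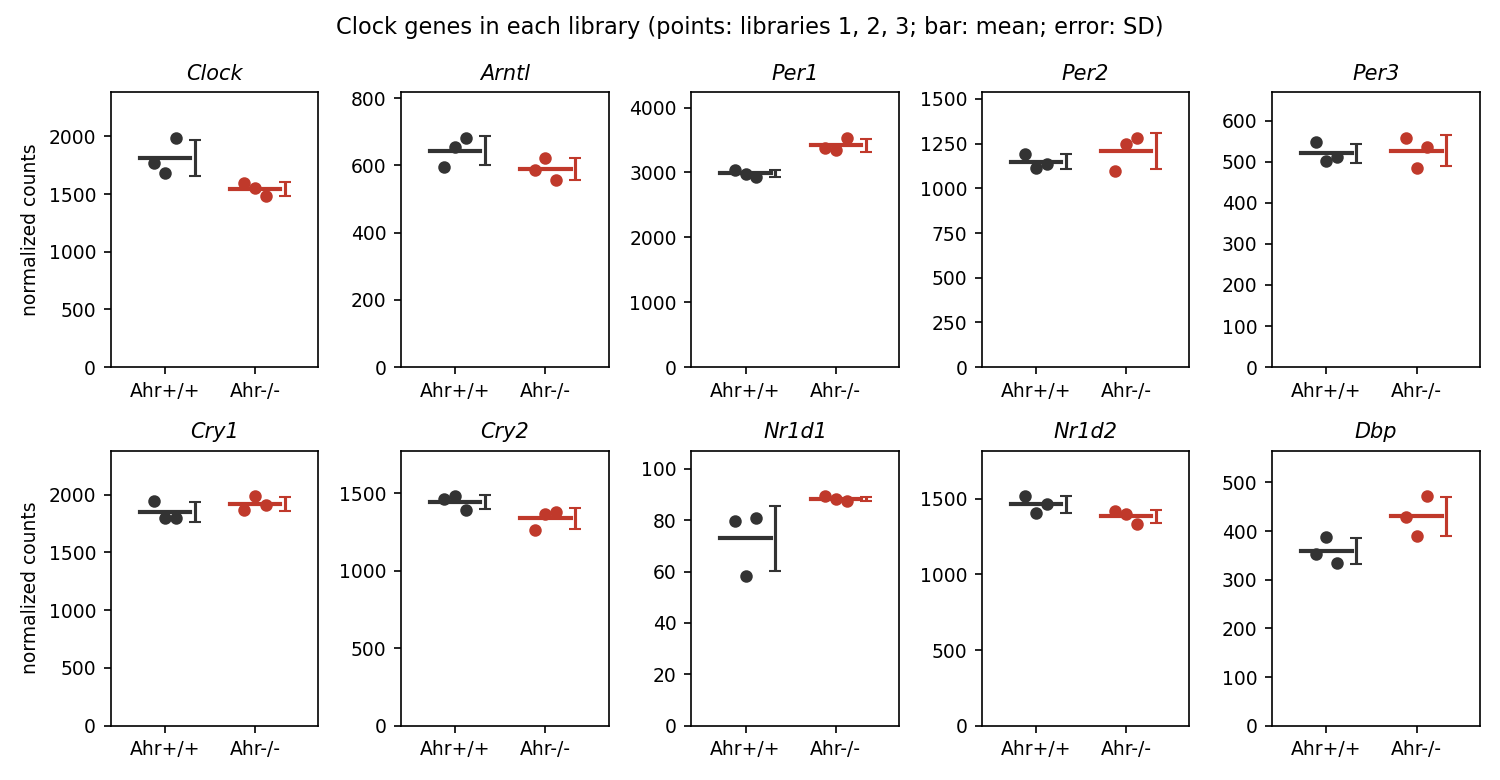
Normalized counts (vertical axes, each starting at 0) of the 10 clock genes in the 3 Ahr+/+ (black) and 3 Ahr-/- (red) libraries, with the mean as a bar and the SD as the error. *Per1* lies between 2937 and 3039 in Ahr+/+ and between 3343 and 3533 in Ahr-/- libraries, and for most other genes the points of the genotypes lie close together or overlap.

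The depth of the libraries lay between 22095096 and 53648787 counts, and 3 counts, taken as the smallest level that can be shown, corresponded to 0.0555 to 0.134 CPM, which are counts relative to library size. Mice of the same genotype differed by more than sampling noise (a chi-square of 3.80 to 8.80 for each degree of freedom), and mice of different genotypes differed more (24.0 to 42.7). *Ahr* itself, the targeted gene, had 13175 ± 682 normalized counts in Ahr+/+ mice against 9174 ± 472 in Ahr-/- mice (SD, 3 mice each). This is a count over the whole gene and does not resolve the deleted exon. *Cyp1a1*, a target gene of AhR, separated the labels, with 5246 ± 242 normalized counts in Ahr+/+ mice against 5.36 ± 2.20 in Ahr-/- mice (SD, 3 mice each). Summed over 10 marker genes of B cells the level was 3076 to 3308 CPM in Ahr+/+ and 3625 to 3850 CPM in Ahr-/- libraries, with 6 markers higher and 1 lower. The summed level of 9 markers of conventional dendritic cells was 50.7 to 59.8 CPM and 62.9 to 69.9 CPM, with 5 markers higher and 1 lower. *Sirpa* made up most of this sum (means of 1299 and 1612 normalized counts), and *Zbtb46* was the lower marker (means of 552 and 418). Of 10 markers of plasmacytoid dendritic cells 7 were higher and 1 was lower, although their sum overlapped between the genotypes (302 to 338 CPM and 264 to 305 CPM). Most of that sum was *Tcf4*, the marker that fell, from a mean of 7537 to 4680.4 normalized counts, while *Siglech* rose from 56.8 to 269.7 normalized counts. The sums for T cells (178 to 187 CPM and 177 to 200 CPM), macrophages and monocytes (33.6 to 44.4 CPM and 20.6 to 36.6 CPM), plasma cells (369.8 to 526 CPM and 348 to 391 CPM), NK cells (7.18 to 9.97 CPM and 8.82 to 13.8 CPM) and neutrophils (2.68 to 8.64 CPM and 3.15 to 11.98 CPM) overlapped as well. Among the markers in these sums 2 of 9 were lower for T cells (*Cd3e* and *Cd28*), 1 of 9 was lower and 1 higher for macrophages and monocytes (*Emr1* and *Ccr2*), and 2 of 5 were lower and 1 higher for plasma cells (*Prdm1*, *Igj* and *Xbp1*). For NK cells 2 of 6 were higher (*Ncr1* and *Klrb1c*). *Lck*, with a mean of 5968 normalized counts in Ahr+/+ mice, made up most of the T-cell sum, and *Emr1* fell from a mean of 649.7 to 54.1 normalized counts. Erythroid markers were at most 1.96 CPM in sum. *Hba-a1* and *Hbb-b1* were at 0 in every library, while *Hbb-bs*, counted as *Beta-s*, had 14 to 58 raw counts per library. The part of these marker levels in the results for the clock genes was not tested.

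*Clock* encodes the bHLH-PAS activator that pairs with BMAL1, and lies on chromosome 5 of GRCm38 from 76209868 to 76304792 on the minus strand. It had 1769, 1680.2 and 1987 normalized counts in Ahr+/+ mice, against 1596, 1549 and 1479.8 in Ahr-/- mice. Every Ahr-/- library was below every Ahr+/+ library, and the highest Ahr+/+ value, in replicate 3, stood somewhat above the others. The means were 1812 ± 158 and 1542 ± 58.5 (SD, 3 mice each), a log2 fold change of −0.23 ± 0.059 (SE; adjusted p = 0.015, edgeR). The 95% interval of the fold change ran from 0.777 to 0.929. A two-sided exact permutation test of the 6 values gave p = 0.1, the smallest that 3 mice against 3 allow. The call was lost without Ahr+/+ replicate 3 (log2 fold change −0.17, adjusted p = 0.061 from edgeR) and without Ahr-/- replicate 2 (−0.24, adjusted p = 0.054 from edgeR), and the log2 fold change stayed between −0.29 and −0.17 with any single library left out.

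*Arntl*, the gene of the partner BMAL1, lies on chromosome 7 from 113207465 to 113314126 on the plus strand. It had 596, 654 and 682 normalized counts in Ahr+/+ mice, against 587, 622 and 556 in Ahr-/- mice. The ranges overlapped, since 2 of the Ahr-/- values lay below the lowest Ahr+/+ value and the third lay above it. The log2 fold change was −0.13 ± 0.070 (SE; adjusted p = 0.26, edgeR), with an interval of the fold change from 0.825 to 1.02. The log2 ratio of *Clock* to *Arntl* within a library was 1.49 ± 0.113 in Ahr+/+ against 1.39 ± 0.066 in Ahr-/- mice (SD, 3 mice each), and these values overlapped (two-sided exact permutation test, p = 0.3). The difference of −0.10 ranged from −0.17 without Ahr+/+ replicate 2 to −0.06 without Ahr+/+ replicate 1 or Ahr-/- replicate 2. The related genes that can stand in for them were nearly absent. *Npas2*, a paralog of *Clock*, had at most 2 raw counts in any library and was not tested, and *Arntl2* had between 1 and 7 raw counts.

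*Per1*, a repressor and an immediate-early responder to many signals, lies on chromosome 11 from 69095217 to 69109960 on the plus strand. It had 3039, 2983 and 2937 normalized counts in Ahr+/+ mice, against 3383, 3343 and 3533 in Ahr-/- mice. The values of each genotype lay close together and the gap between the genotypes, from 3039 to 3343, was wider than the range within either. The means were 2986 ± 51.3 and 3419.7 ± 100.2 (SD, 3 mice each), a log2 fold change of 0.20 ± 0.038 (SE; adjusted p = 0.0032, edgeR). The 95% interval of the fold change ran from 1.08 to 1.21, and the exact permutation test gave p = 0.1, its smallest value. *Per1* passed the threshold in all 14 alternative analyses, with log2 fold changes between 0.17 and 0.21 when any single library was left out.

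The other period genes did not pass the threshold. *Per2* (chromosome 1, 91415982 to 91459324, minus strand) had 1194, 1115 and 1138 normalized counts in Ahr+/+ mice, against 1095, 1246 and 1282 in Ahr-/- mice. The lowest and the highest of the 6 values were both in Ahr-/- libraries. Its log2 fold change was 0.08 ± 0.060 (SE; adjusted p = 0.41, edgeR), with an interval of the fold change from 0.967 to 1.16. *Per3* (chromosome 4, 151003652 to 151044665, minus strand) had 547, 501 and 512 normalized counts in Ahr+/+ mice, against 558, 485 and 536 in Ahr-/- mice. Its ranges lay over each other, with a log2 fold change of 0.01 ± 0.072 (SE; adjusted p = 0.96, edgeR) and an interval of the fold change from 0.901 to 1.12. The sign of the *Per3* value turned when any of 4 single libraries was left out (range −0.03 to 0.07). *Per3* shares its locus with *Camta1* on the same strand, which did not pass the threshold. Whether *Per1* responded differently from its paralogs was compared through the ratio within each library. The log2 ratio of *Per1* to *Per2* was 1.38 ± 0.037 in Ahr+/+ against 1.505 ± 0.108 in Ahr-/- mice, and that of *Per1* to *Per3* was 2.52 ± 0.050 and 2.70 ± 0.094 (SD, 3 mice each). Neither ratio overlapped between the genotypes, and for each the two-sided exact permutation test gave p = 0.1 (0.15 adjusted over the 6 ratios compared), which this design cannot go below. The nearest pair of *Per1* to *Per2* ratios was almost equal at 1.420 and 1.424, and the difference of 0.13 fell to 0.06 without Ahr-/- replicate 1. The ratio of *Per2* to *Per3* overlapped (p = 0.7 by the exact permutation test).

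**Figure D2:**
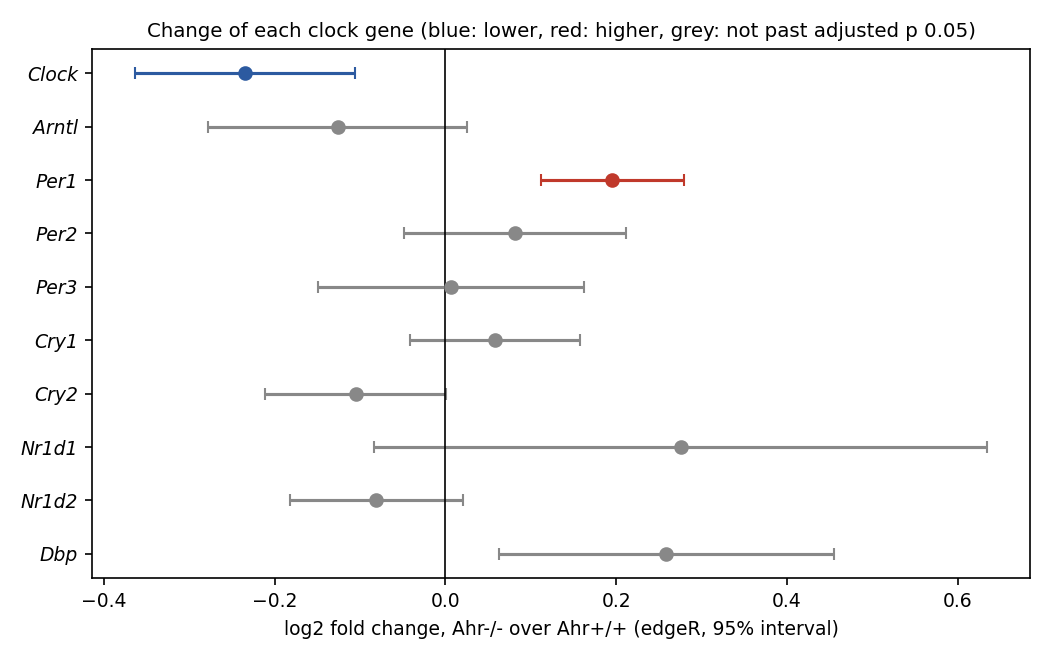
Log2 fold change of each clock gene in Ahr-/- over Ahr+/+ B cells (horizontal axis) with its 95% interval from edgeR, blue where lower, red where higher and grey where the adjusted p was not under 0.05. *Clock* at −0.23 and *Per1* at 0.20 stand on opposite sides of 0, and the widest interval is that of *Nr1d1*, the gene with the fewest counts.

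Of the 5 RefSeq promoter windows of the 2 genes that passed the threshold, 3 are shown, because *Per1* is known to be driven through E-boxes and because AhR with ARNT binds the core GCGTG. Each window runs from 250 bases before to 50 bases after an annotated start on GRCm38.p6, is written 5′ to 3′ on the strand of the gene, and has its motifs in capitals. *Per1* has 2 windows, at chr11:69098699-69098998 and chr11:69099902-69100201 on the plus strand. *Clock* has 3, of which the second, at chr5:76304499-76304798 on the minus strand, held 2 AhR cores and is shown for them. Of the *Clock* windows not shown, the first held 1 AhR core at bases 99 to 103 and the third held 1 ROR core at bases 132 to 137.
Per1 window 1: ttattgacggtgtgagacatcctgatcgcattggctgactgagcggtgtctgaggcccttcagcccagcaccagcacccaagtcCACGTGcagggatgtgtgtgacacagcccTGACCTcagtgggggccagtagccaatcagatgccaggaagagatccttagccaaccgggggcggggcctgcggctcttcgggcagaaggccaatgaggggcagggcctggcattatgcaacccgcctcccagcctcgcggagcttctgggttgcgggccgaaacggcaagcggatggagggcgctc
Per1 window 2: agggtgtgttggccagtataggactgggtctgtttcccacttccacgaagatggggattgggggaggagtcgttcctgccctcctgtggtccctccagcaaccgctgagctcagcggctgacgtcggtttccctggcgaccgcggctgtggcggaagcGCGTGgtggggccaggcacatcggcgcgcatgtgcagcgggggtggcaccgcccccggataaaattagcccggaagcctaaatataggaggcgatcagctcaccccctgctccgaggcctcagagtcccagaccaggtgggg
Clock window 2: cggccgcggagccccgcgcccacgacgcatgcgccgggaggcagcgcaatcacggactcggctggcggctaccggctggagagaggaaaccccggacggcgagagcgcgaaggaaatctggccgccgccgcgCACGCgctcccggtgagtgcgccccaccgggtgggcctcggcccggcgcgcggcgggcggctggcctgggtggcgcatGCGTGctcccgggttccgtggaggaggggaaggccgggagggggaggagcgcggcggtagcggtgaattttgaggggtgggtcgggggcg
In the first *Per1* window the capitals mark an E-box, CACGTG, at bases 85 to 90, and the ROR core AGGTCA on the opposite strand, printed TGACCT, at bases 114 to 119. In the second *Per1* window they mark 1 AhR core at bases 159 to 163. In the *Clock* window they mark the AhR core once on the opposite strand, printed CACGC, at bases 133 to 137 and once on the strand shown at bases 211 to 215.

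Windows were found for 9 of the 10 genes, 13 in all, and *Per2* had no entry. The 13 are not all separate stretches, since the 2 windows of *Arntl* share most of their bases and the first 2 of *Clock* share some. Both strands were searched, and no 2 motifs found in a window overlapped. The E-box CACGTG was present in 2 of the 13 windows, those of *Per1* and *Cry1*, beside 7.15% of all 32851 windows. The D-box, searched as TTATGTAA and TTACATAA and bound by DBP and its relatives, was present in 1 window, that of *Per3*, beside 0.938% of all windows. It occurred there a second time, and the window is shown for this pair of D-boxes, in capitals at bases 46 to 53 and 93 to 100, with an AhR core printed CACGC at bases 236 to 240 (chr4:151044616-151044915, minus strand).
Per3 window 1: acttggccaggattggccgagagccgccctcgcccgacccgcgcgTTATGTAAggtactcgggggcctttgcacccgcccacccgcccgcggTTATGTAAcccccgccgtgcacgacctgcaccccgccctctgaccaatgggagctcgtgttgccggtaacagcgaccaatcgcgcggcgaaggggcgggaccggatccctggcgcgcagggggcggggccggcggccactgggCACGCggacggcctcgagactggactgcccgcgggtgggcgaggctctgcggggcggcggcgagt
The ROR core AGGTCA was present in 4 windows, of *Arntl*, *Clock*, *Per1* and *Nr1d2*, beside 16.3% of all windows. The AhR core GCGTG was present in 9 windows of 8 genes, all but *Arntl* among those with a window, beside 32.4% of all windows. The windows of the clock genes were richer in G and C than windows in general, with a median of 64.7% beside 52.7%, and the part of base composition in these shares was not tested. The AhR core was present at genes that passed the threshold (*Per1*, *Clock*) and at genes that did not (*Per3*, *Cry1*, *Cry2*, *Nr1d1*, *Nr1d2*, *Dbp*). A match of letters is a description of the window and not a bound site.

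The cryptochromes, which bind the PER proteins and carry most of the repression, did not pass the threshold. *Cry1* (chromosome 10, 85131700 to 85185064, minus strand) had 1949, 1794 and 1800.3 normalized counts in Ahr+/+ mice, against 1864, 1985 and 1910.2 in Ahr-/- mice. The ranges overlapped, and the log2 fold change was 0.06 ± 0.046 (SE; adjusted p = 0.45, edgeR), with an interval of the fold change from 0.971 to 1.12. *Cry2* (chromosome 2, 92403646 to 92434043, minus strand) had 1461, 1479 and 1388 normalized counts in Ahr+/+ mice, against 1261, 1366 and 1381 in Ahr-/- mice. All of its Ahr-/- values were below all of its Ahr+/+ values, but the nearest pair, 1381 and 1388, was almost equal. The log2 fold change was −0.11 ± 0.049 (SE; adjusted p = 0.17, edgeR), with an interval of the fold change from 0.864 to 1.00. The log2 ratio of *Cry1* to *Cry2* was 0.36 ± 0.071 in Ahr+/+ against 0.52 ± 0.050 in Ahr-/- mice (SD, 3 mice each). The ratio was higher in each Ahr-/- library than in any Ahr+/+ library, with p = 0.1 by the exact permutation test, its smallest value, and 0.15 after adjustment over the 6 ratios.

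The REV-ERB genes, whose proteins repress *Arntl*, differed widely in level and did not pass the threshold. *Nr1d2* (chromosome 14, 18204054 to 18239127, minus strand) had 1516, 1407 and 1466 normalized counts in Ahr+/+ mice, against 1419, 1399 and 1336 in Ahr-/- mice. The ranges overlapped slightly, with a log2 fold change of −0.08 ± 0.047 (SE; adjusted p = 0.28, edgeR) and an interval of the fold change from 0.881 to 1.01. *Nr1d1* (chromosome 11, 98767932 to 98775333, minus strand) had 79.6, 58.4 and 80.9 normalized counts in Ahr+/+ mice, against 89.2, 88.1 and 87.5 in Ahr-/- mice. The Ahr-/- values were nearly equal (SD 0.869), the Ahr+/+ values were all lower, and Ahr+/+ replicate 2 was the lowest. These rest on 52 to 124 raw counts per library, for which counting alone gives a coefficient of variation between 8.98% and 13.9%. The log2 fold change was 0.28 ± 0.16 (SE; adjusted p = 0.30, edgeR), with an interval of the fold change from 0.944 to 1.55. Without Ahr+/+ replicate 2 the log2 fold change was 0.14 (adjusted p = 0.63 from edgeR). *Nr1d1* overlaps *Thra*, the thyroid hormone receptor α gene, on the opposite strand. *Thra* rose from a mean of 18.3 to 35.9 normalized counts (log2 fold change 1.01, standard error 0.30, adjusted p = 0.032 from edgeR). This call was lost by DESeq2 (adjusted p = 0.084) and without Ahr+/+ replicate 1 or 3 or Ahr-/- replicate 2 (log2 fold change down to 0.79, adjusted p up to 0.18 from edgeR). The use of strand in counting is not given in the sources used here, so reads of the pair may not be fully separated. The log2 ratio of *Nr1d1* to *Nr1d2* was −4.34 ± 0.220 in Ahr+/+ against −3.97 ± 0.034 in Ahr-/- mice (SD, 3 mice each) and did not overlap (exact permutation p = 0.1, 0.15 adjusted over the 6 ratios), and the difference of 0.37 was 0.24 without Ahr+/+ replicate 2. *Rora* and *Rorb* encode receptors that oppose the REV-ERBs at the same elements; *Rora* had 1 to 10 raw counts per library and *Rorb* had none.

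*Dbp* encodes a PAR bZIP factor that is driven by E-boxes and activates output genes through the D-box, and lies on chromosome 7 from 45705088 to 45710203 on the plus strand. It had 353, 387 and 335 normalized counts in Ahr+/+ mice, against 429, 389.6 and 471 in Ahr-/- mice. Every Ahr-/- library was above every Ahr+/+ library, although the nearest pair, 387 and 389.6, was almost level. The means were 358 ± 26.8 and 430.0 ± 40.9 (SD, 3 mice each), a log2 fold change of 0.26 ± 0.090 (SE; adjusted p = 0.069, edgeR), with an interval of the fold change from 1.04 to 1.37. *Dbp* passed the threshold in 4 of 14 alternative analyses, among them the fit without Ahr-/- replicate 2, the library nearest to the Ahr+/+ values (log2 fold change 0.34, adjusted p = 0.035 from edgeR). It overlaps *Sphk2* on the opposite strand, which did not pass the threshold.

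**Figure D3:**
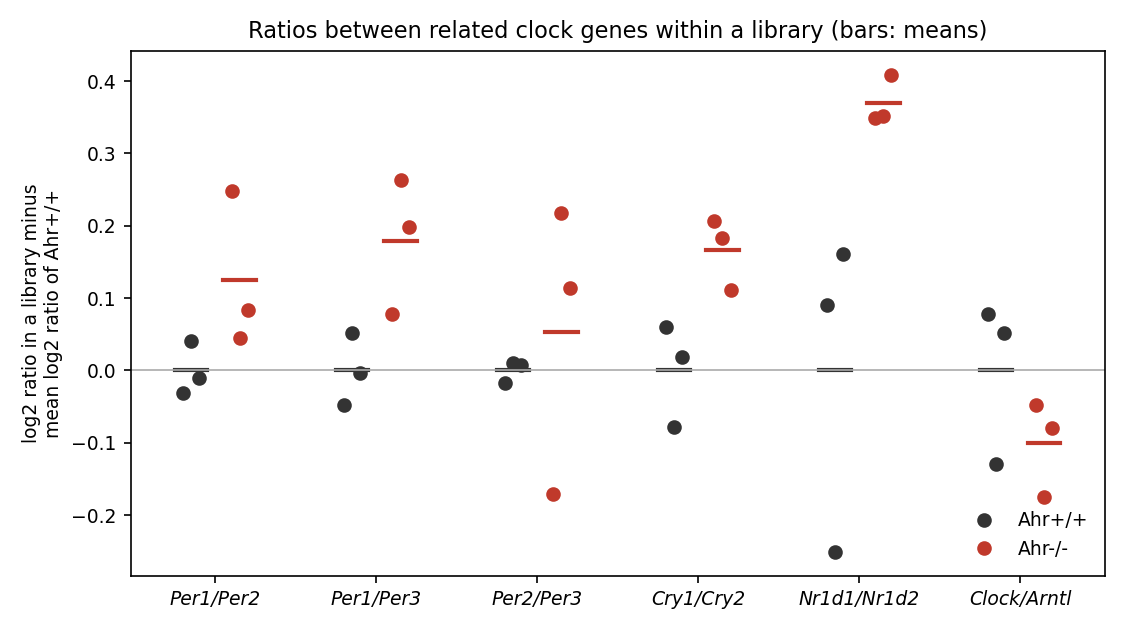
Log2 ratio of related clock genes within each library (vertical axis), drawn as the difference from the mean ratio of the Ahr+/+ libraries, for Ahr+/+ (black) and Ahr-/- (red) libraries with means as bars. *Per1*/*Per2*, *Per1*/*Per3*, *Cry1*/*Cry2* and *Nr1d1*/*Nr1d2* do not overlap between genotypes, and *Per2*/*Per3* and *Clock*/*Arntl* do.

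To compare the genes with each other, levels were expressed as CPM per kb of annotated exon. In Ahr+/+ B cells *Cry1* was the highest at 15.9 ± 0.757 CPM per kb, followed by *Per1* at 13.8 ± 0.237 and *Cry2* at 8.64 ± 0.288 (SD, 3 mice). *Cry1* was above *Per1* and *Per1* above *Cry2* in every library. The range of *Nr1d2*, at 8.16 ± 0.306 CPM per kb, overlapped that of *Cry2*, although *Nr1d2* was below *Cry2* within each Ahr+/+ library. *Arntl* at 5.42 ± 0.366, *Per2* at 5.12 ± 0.181, *Dbp* at 5.07 ± 0.379 and *Clock* at 4.75 ± 0.413 CPM per kb formed a middle group in which neighbours overlapped. *Per3* at 2.26 ± 0.104 and *Nr1d1* at 0.698 ± 0.121 CPM per kb were the lowest, each clear of the gene above it. The per-kb level of *Cry1* was 22.8-fold that of *Nr1d1*, and that of *Nr1d2* was 11.7-fold that of *Nr1d1*. In Ahr-/- B cells the 4 highest and the 3 lowest genes kept their order, while *Dbp* (6.09 ± 0.580 CPM per kb) stood above *Per2* (5.39 ± 0.443) and *Arntl* (4.95 ± 0.277) stood below it. The ranges of *Per1* (15.8 ± 0.463 CPM per kb) and *Cry1* (16.5 ± 0.528, SD, 3 mice) overlapped there, although *Cry1* was above *Per1* within each Ahr-/- library. These comparisons depend on the gene model. With the length of the longest transcript the mean of *Per1* was 16.6 CPM per kb in Ahr+/+ B cells, above that of *Cry1* but with overlap, and *Cry2* had 9.44 ± 0.315 CPM per kb (SD, 3 mice) and was separated from *Nr1d2*.

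**Figure D4:**
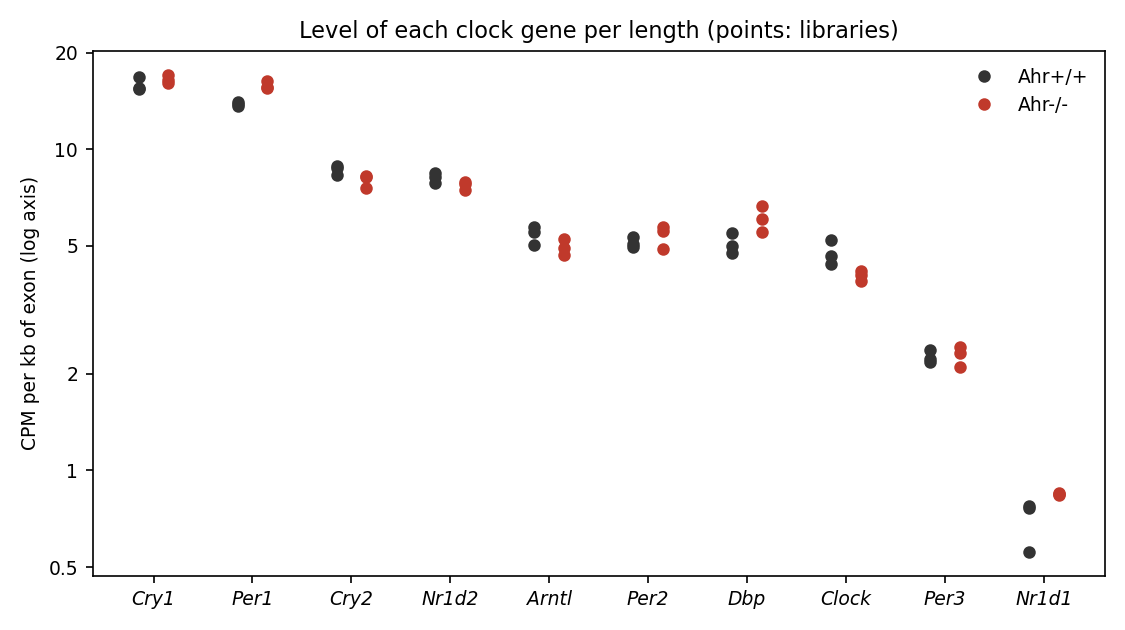
Level of each clock gene in CPM per kb of exon (vertical log axis) in the 3 Ahr+/+ (black) and 3 Ahr-/- (red) libraries, ordered by the Ahr+/+ mean. *Cry1* and *Per1* lie highest, *Nr1d1* lies lowest, and the order of most genes is alike in the genotypes.

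The spread between mice was small for these genes. The median coefficient of variation of the 10 genes was 4.68% in Ahr+/+ (range 1.72% to 17.4%) and 4.34% in Ahr-/- B cells (range 0.984% to 9.52%). For the 6921 genes in the same range of levels the medians were 4.56% and 4.53%. The highest value was that of *Nr1d1* in Ahr+/+, and the lowest was also *Nr1d1*, in Ahr-/-, where it was below the 8.98% to 13.9% that counting alone would give.

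Other genes of the clock machinery were read from a list of 26 regulators, cofactors and modifying enzymes, of which 24 could be tested. In Ahr-/- B cells 3 of them fell and 2 rose, with a median log2 fold change of −0.06, so that 5 of 24 passed beside 17.9% of all tested genes. *Btrc*, which encodes β-TrCP, an F-box protein that recognises phosphorylated PER proteins for degradation, changed most among those 5. It had 1913, 1925 and 1904 normalized counts in Ahr+/+ mice, against 1085, 991 and 1045 in Ahr-/- mice, far apart and each tightly grouped. Its log2 fold change was −0.89 ± 0.045 (SE; adjusted p = 3.4e-08, edgeR), and that of *Fbxw11*, its paralog, was −0.03 (adjusted p = 0.67 from edgeR). *Csnk1e*, a casein kinase that phosphorylates PER proteins, rose from a mean of 1154 ± 55.6 to one of 1394 ± 72.4 normalized counts (SD, 3 mice each; log2 fold change 0.27, adjusted p = 0.0038 from edgeR). Its paralog *Csnk1d* had a log2 fold change of −0.09 (adjusted p = 0.14 from edgeR) and passed only without Ahr-/- replicate 3 (−0.12, adjusted p = 0.041 from edgeR). *Usp7*, a deubiquitinase, was higher by 0.21 on the log2 scale (adjusted p = 0.0011 from edgeR). *Prkaa1*, a catalytic subunit of AMPK, fell by 0.18 (adjusted p = 0.011 from edgeR), a call lost without Ahr+/+ replicate 1 (adjusted p = 0.051) or Ahr-/- replicate 2 (adjusted p = 0.071). *Kdm5a*, a histone demethylase that acts with CLOCK and BMAL1, fell by 0.16 on the log2 scale (adjusted p = 0.0091 from edgeR). The remaining 19 tested genes did not pass, among them *Ciart*, a repressor listed as *Gm129* in the table. PER protein was not measured.

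Genes often driven by the clock were read from a list of 17 output genes in the table, all tested. In Ahr-/- B cells 4 of them fell and 4 rose, beside 8.13% of all tested genes lower and 9.79% higher, and the median log2 fold change was 0.02. *Bhlhe41* encodes DEC2, a bHLH repressor that competes for E-boxes, and fell from a mean of 451 ± 18.6 to one of 284 ± 5.99 normalized counts (SD, 3 mice each; log2 fold change −0.67, adjusted p = 3.7e-05 from edgeR). *Klf9*, a zinc-finger factor that also responds to glucocorticoids, fell from a mean of 438 ± 11.2 to one of 279.8 ± 8.32 normalized counts (SD, 3 mice each; −0.65, adjusted p = 4.4e-05 from edgeR). The spread within each genotype was far smaller than these differences. *Tsc22d3*, encoding the glucocorticoid-induced protein GILZ, fell by 0.33 (adjusted p = 0.011 from edgeR), a call that was also lost without Ahr+/+ replicate 1 (adjusted p = 0.051) or Ahr-/- replicate 2 (adjusted p = 0.062). *Wee1*, a kinase that delays mitosis, fell by 0.26 on the log2 scale (adjusted p = 0.0027 from edgeR). *Lonrf3* was higher by 0.54 (adjusted p = 0.0072 from edgeR) and *Klf10*, a zinc-finger factor, by 0.24 on the log2 scale (adjusted p = 0.0049 from edgeR). The other 2 that were higher had log2 fold changes of 0.22 and 0.16, and the smaller was lost in 5 alternatives. *Bhlhe40*, the paralog of *Bhlhe41*, had a log2 fold change of −0.15 (adjusted p = 0.054 from edgeR) and passed in 6 of 14 alternatives, and *Nfil3*, a repressor at D-boxes, had 0.10 (adjusted p = 0.15 from edgeR). Most of these genes are also controlled by signals other than the clock, so the list is not a readout of clock output alone.

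**Figure D5:**
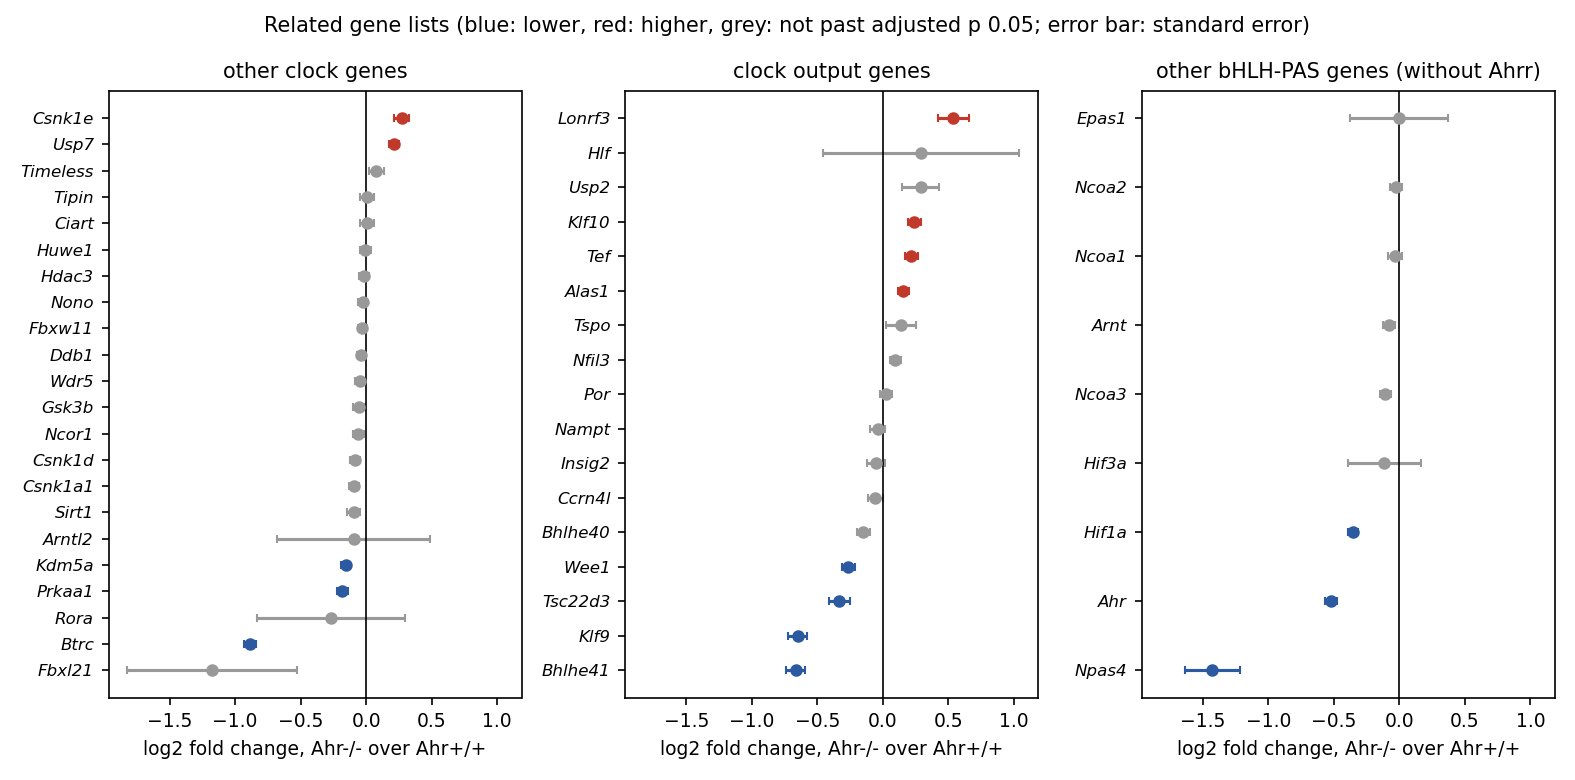
Log2 fold change in Ahr-/- over Ahr+/+ B cells (horizontal axes) with its standard error for tested genes of 3 lists related to the clock, blue where lower, red where higher and grey where not past the threshold. *Ahrr* is left out because its Ahr-/- counts were at the floor, and the widest error bars belong to genes with few counts.

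The other members of the bHLH-PAS family and their coactivators formed a list of 15, of which 10 could be tested. Of these, 4 were lower, *Ahr* among them, beside 8.13% of all tested genes. No tested member had a log2 fold change above 0, but several lay within their standard error of 0. These were *Epas1* (−0.0022 ± 0.37), *Ncoa2* (−0.03 ± 0.045), *Ncoa1* (−0.03 ± 0.051) and *Hif3a* (−0.12 ± 0.28, SE). Scaling by library size alone moved the median of all genes by 0.02, so the signs nearest 0 depend on the scaling. The median log2 fold change was −0.11, and the list holds the deleted gene and a target of AhR. *Ahr* fell by 0.52 on the log2 scale (adjusted p = 7.1e-06 from edgeR). *Ahrr*, the AhR repressor and a target of AhR, had a mean of 329 ± 32.3 normalized counts in Ahr+/+ mice (SD) and 2, 3 and 0 raw counts in the Ahr-/- libraries. *Hif1a*, the hypoxia-responsive partner of ARNT, had 6343, 6163 and 6444 normalized counts in Ahr+/+ mice, against 4862, 5051 and 4923 in Ahr-/- mice, with no overlap (log2 fold change −0.35, standard error 0.037, adjusted p = 2.5e-05 from edgeR). *Npas4*, an activity-dependent factor best known in neurons, was low and fell from a mean of 55.7 ± 6.44 to one of 20.5 ± 1.51 normalized counts (SD, 3 mice each; log2 fold change −1.43, adjusted p = 4.3e-04 from edgeR). *Arnt*, the partner shared by AhR and HIF1α, had a log2 fold change of −0.08 (adjusted p = 0.30 from edgeR), although it passed without Ahr-/- replicate 3 (−0.14, adjusted p = 0.041 from edgeR).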

How the data were processed

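RNA was extracted from 6 cultures, 1 per mouse, and poly(A) libraries were made with a stranded kit and run on an Illumina instrument. The authors deposited raw counts of reads per gene, which were used here; per the labels, the submitters' processing notes name TopHat2 (version 2), HTSeq, DESeq and the build mm10. A deposited table of normalized counts and the authors' table of means, fold changes and p-values were not used.

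Counts were tested with edgeR 4.0.16 in R 4.3.3 (quasi-likelihood test, TMM scaling, prior count 0.125) over the 13682 genes with at least 10 counts over 6 libraries, with Benjamini-Hochberg adjustment and a threshold of 0.05. A further 9738 genes fell below the minimum. Normalized counts are counts divided by effective library size relative to its mean. Standard errors were taken from the fold change and the test statistic, and intervals are at 95%. Floors cover counting error only. Exon lengths and positions came from GENCODE on GRCm38, promoter windows from RefSeq on GRCm38.p6. Alternatives were DESeq2 1.42.0, other scalings, filters and prior counts, a replicate block, and each library left out. The scripts were tested on simulated data with planted changes larger than those of the 10 clock genes, so that test does not cover changes of their size.

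The 10 genes and the lists were chosen with earlier results of these data known. All 10 are described in full; from each related list, genes past the threshold were named, at most 6 by size of change, and further genes named there (paralogs and partners) were added after their values were seen. Some genes of the other clock list count in its totals but are not reported here by name or drawn.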

Additional observations from a re-analysis of the deposited data

How the results depend on the processing

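*Per1* was higher under all 14 alternatives. *Clock* kept its direction, but no clock gene was called lower (0, against 1) without Ahr+/+ replicate 3 or without Ahr-/- replicate 2, where *Clock* had −0.17 and −0.24, or at an adjusted p under 0.01; leaving out single libraries gave 0 to 1 genes lower and 1 to 2 higher. *Dbp* passed, giving 2 higher genes, with library size alone (0.28), without a filter (0.26), with the robust fit (0.26) and without Ahr-/- replicate 2 (0.34; range 0.18 to 0.34 over single libraries left out). *Clock* ranged from −0.29 to −0.17 and *Per3*, which reversed without Ahr+/+ replicate 2 (−0.02) or 3 (−0.0042) and Ahr-/- replicate 1 (−0.03) or 3 (−0.02), from −0.030 to 0.069. Over all genes an adjusted p under 0.01 left 690 lower and 783 higher, from 1113 and 1340. Library size alone moved the median of all genes by 0.02 and the lower share of called genes from 45.4% to 36.2%. The 6 other clock genes kept their direction and side of the threshold, although single libraries left out moved *Arntl* between −0.18 and −0.08, *Per2* between 0.04 and 0.14, *Cry1* between 0.03 and 0.10 and *Nr1d1* between 0.14 and 0.35. The *Per2*/*Per3* difference turned to −0.03 without Ahr-/- replicate 2, and the marker sums of T cells, neutrophils and erythroid cells changed direction with single libraries left out; the other ratios and sums kept their direction, with no test of them run on fewer libraries. Deviations of mice with the same replicate number correlated at −0.14, 0.26 and −0.16, beside −0.36 to 0.38 for unlike numbers. With 3 mice each these values cannot show whether mice were handled in pairs. With a replicate block 1065 genes were lower and 1239 higher, and 1 clock gene each way. Of the named genes outside the 10, *Btrc*, *Csnk1e*, *Usp7*, *Kdm5a*, *Bhlhe41*, *Klf9*, *Wee1*, *Lonrf3*, *Klf10*, *Hif1a*, *Npas4*, *Ahr* and *Cyp1a1* kept their calls under all 14 alternatives. Among the 6 alternatives in which *Bhlhe40* passed were no filter (−0.15), DESeq2 (−0.15), the robust fit (−0.15) and the block (−0.15). With single libraries left out it ranged from −0.19 to −0.12, with a lowest adjusted p of 0.011 from edgeR. Why these calls moved was not tested.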
